A study of Mus musculus with 8 samples.

Results

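Hedgehog receptors and Gli factors were examined in neural stem cells (NSCs) as a set of 10 genes: Ptch1, Smo, Hhip, Cdon, Boc, Gas1, Sufu, Gli1, Gli2 and Gli3. A member was every probe set that the array annotation ties to 1 of these symbols alone, which gave 27 of the 45101 probe sets on the array. The mouse NSCs grew as secondary neurospheres, floating clonal colonies made from dissociated primary colonies. The series text gives adult brain as their source, the study's methods embryonic or adult forebrain, and the age of the cells on these arrays was not settled. Affymetrix mouse whole-genome arrays were run in 4 groups of 2 arrays: rcCHIL3 for 7 days, rcCHIL3 for 3 days, MHM + GF for 7 days and MHM + GF for 3 days. The rcCHIL3 medium was conditioned by HEK293T cells, a human embryonic kidney line, that had been transfected with Chil3 (also called ECF-L), a secreted chitinase-like protein. No growth factor was added to it. The MHM + GF medium was the unconditioned medium hormone mix with EGF and FGF-2. The absence of added growth factors, the other products of HEK293T cells and CHIL3 itself therefore differ together between the media and cannot be told apart in these arrays. Both arrays of a group were described as independent experiments, and whether they came from separate animals is not given in the sources used here.

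Hedgehog ligands bind Ptch1, which otherwise holds the membrane protein Smo inactive; Cdon, Boc and Gas1 are co-receptors that help the ligand bind, and Hhip is a decoy that takes it up. Freed Smo acts through the primary cilium on the Gli transcription factors, which Sufu restrains in the cytoplasm, with Gli2 acting mainly as an activator, Gli3 mainly as a repressor and Gli1 as an activator that is itself a target gene. Ptch1, Hhip and Gli1 are common target genes of the pathway, and in the ventricular-subventricular zone of the adult brain the pathway is known for maintaining NSCs.

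Signals were on a linear scale with an average of 100 on each array, and probe sets that reached 50 on at least 2 of 8 arrays were kept, 15679 in all. The 2 arrays of each group correlated at 0.992 to 0.994. The 3′ to 5′ signal ratio of the actin control probe sets, a measure of RNA integrity, was 1.65 and 1.83 in MHM + GF at 7 days and 1.33 to 1.57 on the other 6 arrays. The same ratio of the Gapdh controls did not set this group apart, with 0.822 and 0.89 beside 0.755 to 0.867 on the other 6. All 9 neural stem and progenitor markers that had a probe set were kept, among them Sox2 and Sox9, while Nes averaged 13.8 in rcCHIL3 at 7 days, 25.2 in rcCHIL3 at 3 days, 29.9 in MHM + GF at 7 days and 187 in MHM + GF at 3 days. No listed endothelial or microglial marker was kept. In RNA from whole cultures, fewer cells of a type and less RNA per cell cannot be told apart, and this applies to every level below.

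Of the 27 probe sets, 13 passed the filter, and these covered 8 of the 10 genes. Gli1 has a single probe set (1449058_at), which read 0.39 and 1.93 in rcCHIL3 at 7 days, 1.75 and 2.69 in rcCHIL3 at 3 days, 1.53 and 7.37 in MHM + GF at 7 days and 4.61 and 4.16 in MHM + GF at 3 days. These values lay far under the filter on all 8 arrays, so Gli1 gave no usable level in any group. Hhip had 4 probe sets, and none exceeded 21.8 on any array. Genes with a kept probe set had others under the filter, which did not exceed 9.38 for Ptch1 (2 probe sets), 6.76 for Gli3, 6.22 for Cdon, 3.29 for Boc and 17.0 for Gas1. Signals of different probe sets depend on their probes and are not compared with each other here.

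**Figure D1:**
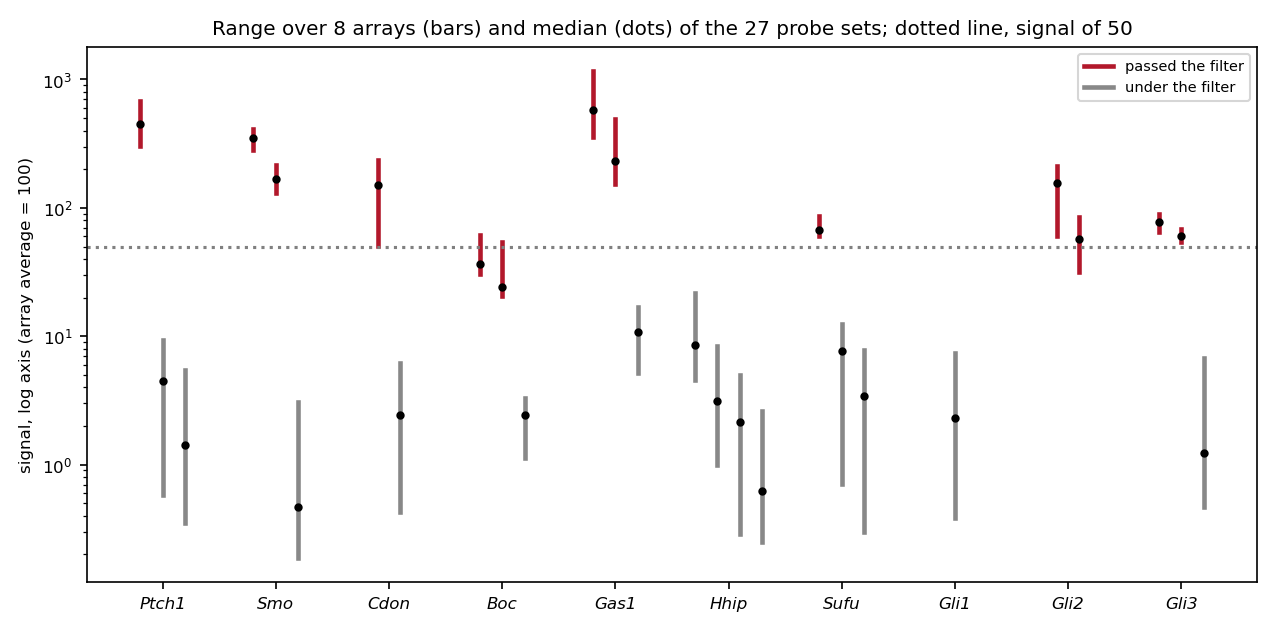
Signal of the 27 probe sets on a log axis (each array scaled to an average of 100), as the range over 8 arrays (bars) and the median (dots), with red for the 13 that passed the filter and grey for the 14 that did not. Both Boc probe sets cross the dotted line at 50 only with their highest arrays, and Gli1 and Hhip lie entirely beneath it.

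Ptch1, the receptor and a target gene, was lower in rcCHIL3 than in MHM + GF at both days. Its probe set 1428853_at read 405 and 339 in rcCHIL3 at 7 days, 301 and 323 in rcCHIL3 at 3 days, 504 and 497 in MHM + GF at 7 days and 683 and 636 in MHM + GF at 3 days. All 4 rcCHIL3 arrays were below all 4 MHM + GF arrays, and no 2 groups overlapped. At 7 days the mean signal in rcCHIL3 was 0.743 times that in MHM + GF (log2 change ± SE -0.42 ± 0.08, adjusted p = 0.0023, limma; ± gives the SE throughout), and at 3 days it was 0.473 times (log2 change -1.03 ± 0.08, adjusted p = 1.5e-06). The 7-day call was lost by the t-test of the study's methods, even without adjustment, and the 3-day call was not. The effect at 7 days exceeded that at 3 days by 0.62 on the log2 scale (SE 0.12, adjusted p = 0.0017), toward a smaller deficit. Within MHM + GF the level fell with time (7 minus 3 days -0.38 ± 0.08, adjusted p = 0.0024). Within rcCHIL3 it rose slightly (0.23 ± 0.08, adjusted p = 0.049), a call that was lost in 14 of 21 alternative settings and without any 1 of 7 of the 8 arrays, where the adjusted p was 0.053 to 0.37. Ptch1 lies on chromosome 13 at 63508328 to 63573460 (GRCm38.p6).

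**Figure D2:**
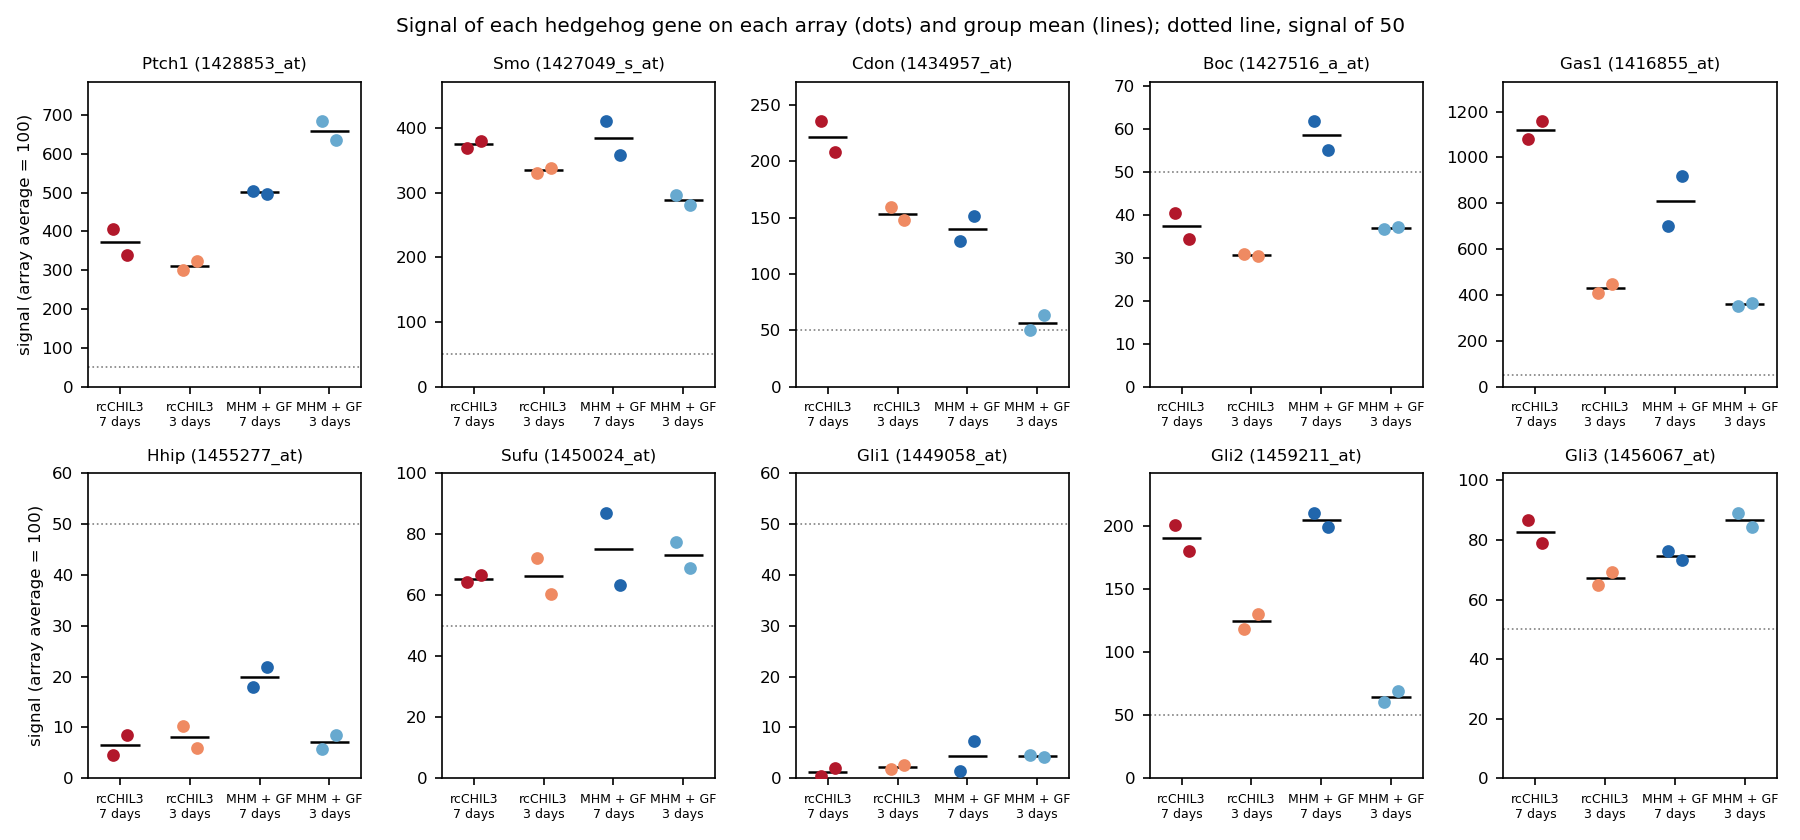
Signal of each gene on each array (dots; each array scaled to an average of 100) and the mean of the 2 arrays (lines) in the 4 groups, for the kept probe set of highest mean signal, or for Hhip and Gli1 the highest of those under the filter; every axis starts at 0 and the dotted line marks 50. Ptch1 is highest in MHM + GF at 3 days, where Cdon and Gli2 are lowest.

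Smo, the signal transducer, differed by small amounts. Its probe set 1427049_s_at read 369 and 380.4 in rcCHIL3 at 7 days, 330.2 and 338 in rcCHIL3 at 3 days, 410.2 and 359 in MHM + GF at 7 days and 296 and 281 in MHM + GF at 3 days. The lowest pair was MHM + GF at 3 days, and the 2 media overlapped at 7 days. At 3 days the rcCHIL3 arrays were higher by 0.20 on the log2 scale (adjusted p = 0.044), and this call was lost in 12 of 21 settings. Leaving out any array except those of MHM + GF at 7 days ended it, with adjusted p of 0.057 to 0.19. At 7 days the change was -0.03 with a 95% confidence interval of -0.20 to 0.13.

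The second Smo probe set, 1427048_at, read 197 and 215 in rcCHIL3 at 7 days, 174 and 143 in rcCHIL3 at 3 days, 161 and 173 in MHM + GF at 7 days and 141 and 131 in MHM + GF at 3 days. It was highest in rcCHIL3 at 7 days, where both arrays exceeded all 6 others. Its changes were 0.27 ± 0.10, adjusted p = 0.039 at 7 days and 0.19 ± 0.10, adjusted p = 0.12 at 3 days, so that the 2 probe sets passed the threshold at different days. The 7-day call ended without any 1 of the 4 arrays taken at 7 days (adjusted p 0.057 to 0.20). Within MHM + GF both probe sets rose with time, by 0.39 (adjusted p = 0.0011) and 0.26 (adjusted p = 0.037), although the smaller rise was lost without any 1 of the 4 MHM + GF arrays (adjusted p 0.05 to 0.16). In rcCHIL3 the 1427048_at signal rose by 0.34 (adjusted p = 0.017), which became 0.17 without rcCHIL3 replicate 2 at 3 days and 0.11 without rcCHIL3 replicate 2 at 7 days. The other Smo probe set stayed at 3.1 or less.

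Hhip, the decoy receptor, was under the filter throughout. Its highest probe set, 1455277_at, read 4.59 and 8.45 in rcCHIL3 at 7 days, 10.3 and 5.99 in rcCHIL3 at 3 days, 17.9 and 21.8 in MHM + GF at 7 days and 5.78 and 8.5 in MHM + GF at 3 days. Both MHM + GF arrays at 7 days exceeded all others, still at levels under the filter. In the fit of all probe sets without the filter its change at 7 days was -0.59 ± 0.12, adjusted p = 0.013, and that within MHM + GF over time was 0.55 ± 0.12, adjusted p = 0.011. The effect of rcCHIL3 at 7 days minus that at 3 days was -0.64 ± 0.17, adjusted p = 0.043. The remaining 3 Hhip probe sets did not exceed 8.36.

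Among the co-receptors, Cdon was higher in rcCHIL3 at both days. Its probe set 1434957_at read 235 and 208 in rcCHIL3 at 7 days, 159 and 148 in rcCHIL3 at 3 days, 129 and 151 in MHM + GF at 7 days and 50.1 and 63.6 in MHM + GF at 3 days. Both media separated at each day, and the MHM + GF arrays at 3 days stood well beneath the other 6. At 7 days the mean signal in rcCHIL3 was 1.58 times that in MHM + GF (log2 change 0.60 ± 0.11, adjusted p = 0.0012), and at 3 days it was 2.7 times (log2 change 1.18 ± 0.11, adjusted p = 4.4e-06). The difference was smaller at the later day (7 minus 3 days -0.58 ± 0.16, adjusted p = 0.011). Cdon rose with time in both media, by 1.06 ± 0.11, adjusted p = 9.2e-06 in MHM + GF and by 0.48 ± 0.11, adjusted p = 0.0059 in rcCHIL3, where the adjusted p became 0.054 without rcCHIL3 replicate 2 at 3 days or without rcCHIL3 replicate 1 at 7 days. In order of level, rcCHIL3 at 7 days stood above rcCHIL3 at 3 days, which overlapped MHM + GF at 7 days, and MHM + GF at 3 days came last.

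Of the 6 astrocyte markers, 4 (Gfap, Aqp4, S100b and Gja1) were also lowest in MHM + GF at 3 days. The summed signal of the list, of which all 6 genes were kept, was 7610 to 7690 in rcCHIL3 at 7 days, 6170 to 6340 in rcCHIL3 at 3 days, 7190 to 7310 in MHM + GF at 7 days and 3690 to 3860 in MHM + GF at 3 days. Gfap averaged 1550 in rcCHIL3 at 7 days, 910 in rcCHIL3 at 3 days, 1140 in MHM + GF at 7 days and 52 in MHM + GF at 3 days. The other 2 markers did not follow, since Slc1a2 averaged 336 and Aldh1l1 998 in MHM + GF at 3 days, and Aldh1l1 was at 440 in rcCHIL3 at 7 days, 409 in rcCHIL3 at 3 days and 652 in MHM + GF at 7 days. Oligodendrocyte markers also had their lowest sum in MHM + GF at 3 days, 2170 to 2210. It was 3150 to 3210 in MHM + GF at 7 days and 3410 to 3580 over the rcCHIL3 arrays. Of that list Pdgfra and Cspg4 were instead highest in MHM + GF at 3 days, at 269 and 148. Sox10 was not lowest there either, at 267 against 171 in MHM + GF at 7 days. Mbp, the strongest of the list, averaged 1480 in MHM + GF at 3 days and 2640 to 2730 in the other groups. Ependymal and choroid plexus markers summed to 409 to 592 in MHM + GF at 3 days, overlapping rcCHIL3 at 3 days (510 to 856). Of these, Otx2 was instead highest in MHM + GF at 3 days, at 315 against 195 to 276 in the other groups. The part of any of these cell types in the Cdon and Gli2 levels was not tested.

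Boc, a co-receptor of the same family as Cdon, was lower in rcCHIL3 at 7 days. Its probe set 1426869_at read 22.9 and 28.6 in rcCHIL3 at 7 days, 20.6 and 23.2 in rcCHIL3 at 3 days, 54.2 and 50.8 in MHM + GF at 7 days and 25.2 and 23.0 in MHM + GF at 3 days. The MHM + GF arrays at 7 days alone exceeded 50, and the other 6 arrays lay together. A second probe set, 1427516_a_at, read 40.4 and 34.5 in rcCHIL3 at 7 days, 31.0 and 30.4 in rcCHIL3 at 3 days, 61.7 and 55.1 in MHM + GF at 7 days and 36.6 and 37.1 in MHM + GF at 3 days. It gave the same order, with both MHM + GF arrays at 7 days again above all others. At 7 days the changes were -0.67 ± 0.10, adjusted p = 4.1e-04 and -0.45 ± 0.10, adjusted p = 0.0038. At 3 days they were -0.07 ± 0.10, adjusted p = 0.59 and -0.16 ± 0.10, adjusted p = 0.19. Boc passed the filter only because of the group in which it was high, so that a difference from that group was built into its selection; its calls at 7 days carry no weight beyond a description. The change of effect between the days was -0.59 ± 0.15, adjusted p = 0.0076 for 1426869_at and -0.29 ± 0.14, adjusted p = 0.13 for 1427516_a_at.

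Of the markers of mural cells and fibroblasts, Pdgfrb and Rgs5 were likewise highest in MHM + GF at 7 days. The list, with 4 of 7 genes kept, summed to 207 to 213 in rcCHIL3 at 7 days, 263 on both arrays of rcCHIL3 at 3 days, 524 to 576 in MHM + GF at 7 days and 242 to 272 in MHM + GF at 3 days. At 7 days Pdgfrb averaged 17.5 in rcCHIL3, against 199 in MHM + GF, and Rgs5 averaged 49.3 in rcCHIL3, against 232 in MHM + GF. The other 2 kept genes were lowest in MHM + GF at 7 days, where Cspg4 averaged 49.8 and Acta2 averaged 44.2. Their highest means were 148 for Cspg4, in MHM + GF at 3 days, and 114 for Acta2, in rcCHIL3 at 3 days. The fibroblast markers Col1a1 and Dcn averaged 6.39 or less in every group.

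Markers of neuroblasts and neurons were highest in the same group, with 5 of 6 genes kept. Their sum was 1270 to 1370 in rcCHIL3 at 7 days, 1830 to 1890 in rcCHIL3 at 3 days, 2650 to 2660 in MHM + GF at 7 days and 1500 to 1560 in MHM + GF at 3 days. All 5 kept genes had their highest mean in MHM + GF at 7 days. Dlx2, a factor of interneuron progenitors, averaged 62.3 in rcCHIL3 at 7 days, 173 in rcCHIL3 at 3 days, 434 in MHM + GF at 7 days and 50 in MHM + GF at 3 days. The part of neuronal or mural cells, or of the actin ratio that was also highest in this group, in the Boc and Hhip levels was not tested.

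Gas1, a membrane-anchored co-receptor first known from growth-arrested fibroblasts, had the largest rise with time of the 8 genes within rcCHIL3. Its probe set 1416855_at read 1079.6 and 1158 in rcCHIL3 at 7 days, 410.3 and 448 in rcCHIL3 at 3 days, 699 and 918 in MHM + GF at 7 days and 355 and 367 in MHM + GF at 3 days. All 4 arrays at 7 days exceeded all 4 at 3 days, and at 7 days rcCHIL3 exceeded MHM + GF. The mean signal at 7 days was 2.61 times that at 3 days in rcCHIL3 (log2 change 1.34 ± 0.10, adjusted p = 3.2e-06) and 2.24 times in MHM + GF (1.11 ± 0.10, adjusted p = 4.4e-06). Between media the log2 change was 0.47 ± 0.10, adjusted p = 0.0039 at 7 days and 0.24 ± 0.10, adjusted p = 0.079 at 3 days. This 7-day call, and that of the second probe set below, was lost by the t-test of the study's methods, even without adjustment.

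The second Gas1 probe set, 1448494_at, read 494 and 481 in rcCHIL3 at 7 days, 156 and 184 in rcCHIL3 at 3 days, 375 and 282 in MHM + GF at 7 days and 165 and 152 in MHM + GF at 3 days. At 7 days its rcCHIL3 arrays again stood clear of the MHM + GF arrays, and at 3 days the media overlapped. Over time it rose by 1.42 in rcCHIL3 (adjusted p = 4.3e-06) and by 0.95 in MHM + GF (adjusted p = 3.4e-05). Between media the change was 0.56 ± 0.12, adjusted p = 0.0027 at 7 days and 0.08 ± 0.12, adjusted p = 0.58 at 3 days. The 2 effects differed for this probe set (0.47 ± 0.16, adjusted p = 0.038) and not past the threshold for 1416855_at (0.23 ± 0.15, adjusted p = 0.23). Leaving out any array except MHM + GF replicate 1 at 7 days and rcCHIL3 replicate 2 at 3 days ended the call of a differing effect for 1448494_at (adjusted p 0.053 to 0.15). Of the third probe set, 1456322_at, all values lay under the filter, and it passed the threshold in the unfiltered fit within MHM + GF over time (0.45 ± 0.13, adjusted p = 0.033).

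Gas1 and Gli3 both lie on mouse chromosome 13, and the 250 bases before their start sites are shown as the contrast between the member with the largest rise in rcCHIL3 and one that moved little. In the RefSeq table for GRCm38.p6, 8 of the 10 members had a promoter window, of 250 bases before to 50 after the start. The GLI consensus GACCACCCA, searched as an exact match on both strands, was in 0 of these 8 windows and in 83 of all 32851 (0.253%), so nothing is in capitals; its absence says only that these letters are not in the windows. Of the 250 bases, 58.8% were G or C for Gas1 and 72.8% for Gli3, with a median of 52.4% over all windows. The Gas1 bases are chr13:60177536-60177785 on the minus strand and the Gli3 bases are chr13:15463473-15463722 on the plus strand, both written 5′ to 3′.
Gas1: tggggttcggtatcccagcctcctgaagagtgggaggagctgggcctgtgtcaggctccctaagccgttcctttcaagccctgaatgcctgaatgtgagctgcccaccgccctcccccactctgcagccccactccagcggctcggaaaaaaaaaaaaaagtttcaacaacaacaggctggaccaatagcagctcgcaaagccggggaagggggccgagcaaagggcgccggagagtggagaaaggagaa
Gli3: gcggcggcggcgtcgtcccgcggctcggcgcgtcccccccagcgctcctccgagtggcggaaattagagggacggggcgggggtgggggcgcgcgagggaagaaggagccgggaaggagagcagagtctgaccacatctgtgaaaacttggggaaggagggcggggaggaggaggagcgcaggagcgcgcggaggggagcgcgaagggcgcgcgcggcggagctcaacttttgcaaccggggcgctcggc

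Gli2, the main activator of the family, was higher in rcCHIL3 at 3 days. Its probe set 1459211_at read 201 and 180.3 in rcCHIL3 at 7 days, 119 and 131 in rcCHIL3 at 3 days, 211 and 199.7 in MHM + GF at 7 days and 60.4 and 69.5 in MHM + GF at 3 days. The MHM + GF arrays at 3 days were the lowest, those of rcCHIL3 at 3 days came next, and the media overlapped at 7 days. At 7 days the log2 change was -0.10 with a 95% confidence interval of -0.30 to 0.11. At 3 days the mean signal in rcCHIL3 was 1.92 times that in MHM + GF (log2 change 0.77 ± 0.09, adjusted p = 3.5e-05). The 2 effects differed (-0.87 ± 0.13, adjusted p = 3.3e-04). Gli2 rose with time in both media, to 3.16 times the 3-day mean in MHM + GF (1.41 ± 0.09, adjusted p = 2.3e-07) and to 1.53 times in rcCHIL3 (0.54 ± 0.09, adjusted p = 9.1e-04).

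The second Gli2 probe set, 1446086_s_at, read 67.5 and 62.7 in rcCHIL3 at 7 days, 51.0 and 48.1 in rcCHIL3 at 3 days, 76.2 and 85.5 in MHM + GF at 7 days and 31.7 and 36.7 in MHM + GF at 3 days. No 2 groups overlapped, and the order was that of the other probe set. Its 7-day change was -0.24 ± 0.10, adjusted p = 0.067. At 3 days it was 0.36 ± 0.10, adjusted p = 0.011, and this p became 0.077 without MHM + GF replicate 1 at 3 days and 0.065 without rcCHIL3 replicate 1 at 3 days. The difference of the effects was -0.60 ± 0.14, adjusted p = 0.0053. The rise within MHM + GF was 0.90 ± 0.10, adjusted p = 1.6e-05. That within rcCHIL3 (0.29 ± 0.10, adjusted p = 0.04) was lost without any 1 of the 4 rcCHIL3 arrays (adjusted p 0.079 to 0.17). Gli2 lies on chromosome 1 at 118834061 to 119054405.

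Gli3, the main repressor, stayed within a narrow range. Its probe set 1456067_at read 86.7 and 78.9 in rcCHIL3 at 7 days, 65.0 and 69.3 in rcCHIL3 at 3 days, 76.2 and 73.1 in MHM + GF at 7 days and 89.1 and 84.5 in MHM + GF at 3 days. At 7 days both rcCHIL3 arrays were slightly above both MHM + GF arrays (log2 change 0.12 ± 0.09, adjusted p = 0.32), and at 3 days they were below them (log2 change -0.29 ± 0.09, adjusted p = 0.019). The difference of these effects was 0.41 ± 0.13, adjusted p = 0.024. The 3-day call ended without MHM + GF replicate 1 at 3 days (adjusted p = 0.094) or rcCHIL3 replicate 1 at 3 days (0.11), and the difference between the days ended without any 1 of these or of MHM + GF replicate 2 or rcCHIL3 replicate 1 at 7 days (0.066 to 0.080). Another Gli3 probe set, 1455154_at, ranged over 54.4 to 68.6 on the 8 arrays and was called in none of the 5 comparisons, with a change of -0.13 ± 0.10, adjusted p = 0.27 at 3 days.

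Sufu, the inhibitor of the Gli factors, had 1 kept probe set, 1450024_at, which was called in none of the 5 comparisons. It read 64.5 and 66.5 in rcCHIL3 at 7 days, 72.4 and 60.4 in rcCHIL3 at 3 days, 87.0 and 63.2 in MHM + GF at 7 days and 77.5 and 68.9 in MHM + GF at 3 days. The groups overlapped in each comparison of media or of days. The 95% confidence interval of the change was -0.42 to 0.13 at 7 days and -0.39 to 0.17 at 3 days, so changes within these bounds could go uncalled here. Its other 2 probe sets stayed at 12.4 or less; of these, 1431713_at read 8.89 and 8.72 in rcCHIL3 at 7 days, 6.99 and 0.71 in rcCHIL3 at 3 days, 2.17 and 2.98 in MHM + GF at 7 days and 12.4 and 8.36 in MHM + GF at 3 days. In the unfiltered fit it passed the threshold within MHM + GF over time (-0.42 ± 0.13, adjusted p = 0.041) and for the effect of rcCHIL3 at 7 days minus that at 3 days (0.71 ± 0.18, adjusted p = 0.031), all at levels under the filter.

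At 3 days, 4 of the 13 kept member probe sets were higher in rcCHIL3 than in MHM + GF (Cdon, both Gli2 and 1 Smo) and 2 were lower (Ptch1 and 1 Gli3). Of all 15679 kept probe sets, 27.7% were higher and 22.5% lower, so the members were called about as often as probe sets in general. The median log2 change was 0.08 for the members and 0.03 for all. At 7 days, 4 were higher (Cdon, both Gas1 and 1 Smo) and 3 were lower (Ptch1 and both Boc), beside 21.3% higher and 22.7% lower of all. Both Boc probe sets passed the filter only through MHM + GF at 7 days, so their lower signal in rcCHIL3 was built into their selection. Here the medians were -0.03 for the members and -0.01 for all. Counted by genes, each taken by its kept probe set of highest mean, 3 of 8 were higher and 2 lower at 3 days, and 2 were higher and 2 lower at 7 days, with Boc among the lower. Of all 8975 kept genes taken in this way, 30.3% were higher and 22.1% lower at 3 days. At 7 days 21.8% were higher and 22.6% lower. Ptch1 and Cdon were called at both days, in opposite directions.

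**Figure D3:**
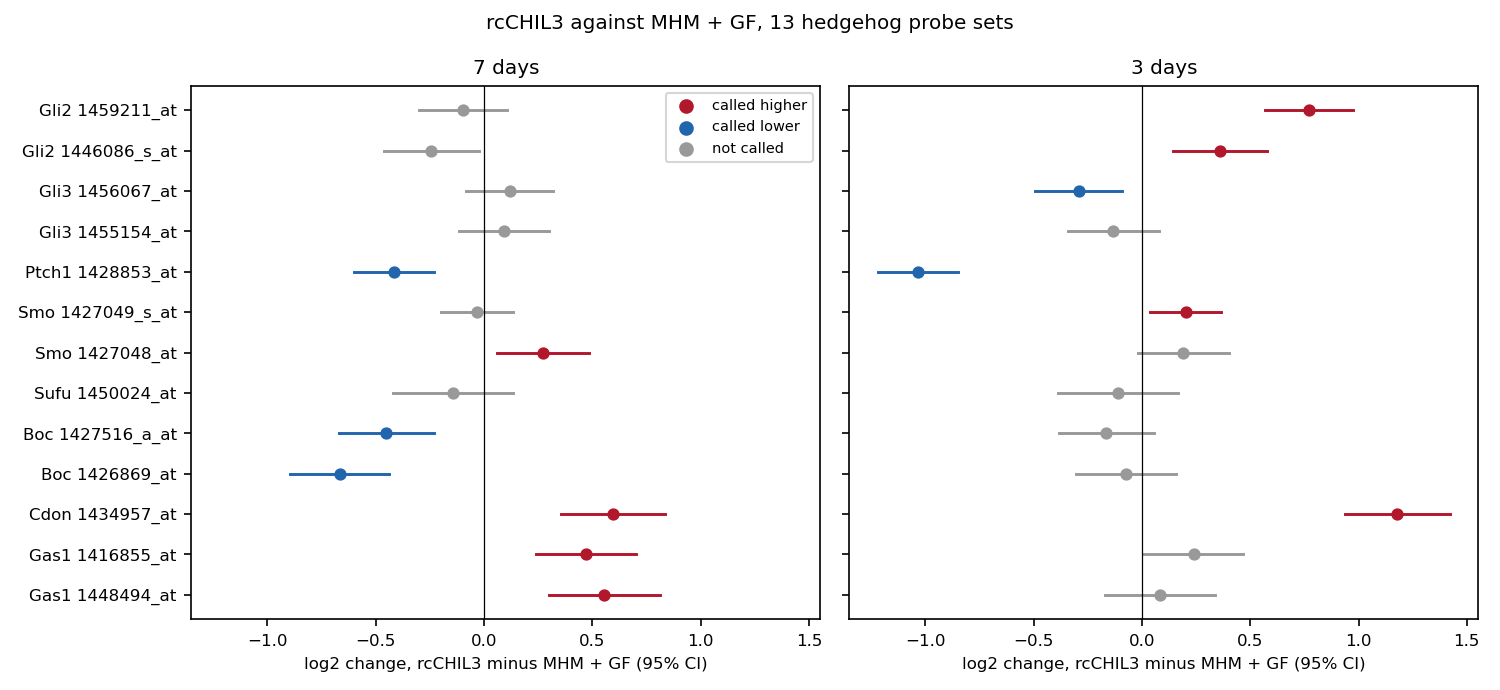
Log2 change of rcCHIL3 minus MHM + GF at 7 days (left) and at 3 days (right) for the 13 kept probe sets, with 95% confidence intervals; red and blue mark calls after adjustment over 15679 probe sets. Cdon lies to the right and Ptch1 to the left of 0 at both days, while Gli2 is called only in the 3-day panel and Boc and Gas1 only in the 7-day panel.

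Over time, the members rose more often than they fell. Within rcCHIL3, 7 of the 13 were higher at 7 days than at 3 days and 0 were lower by limma, while 18% of all kept probe sets were higher and 17.9% lower. By the methods' t-test without adjustment 6 members were called in this comparison, and 0 after adjustment. Within MHM + GF, 9 were higher and 1, Ptch1, was lower, beside 31.1% higher and 26% lower of all; both Boc probe sets are among the 9 and were bound to differ. Median log2 changes of the members were 0.24 in rcCHIL3 and 0.46 in MHM + GF, with 0.00 and 0.04 over all kept probe sets. Both probe sets of Gli2, both of Gas1, that of Cdon and 1427048_at of Smo rose in both media. Counted by genes, each taken by its kept probe set of highest mean, 4 of 8 were higher and 0 lower in rcCHIL3. Ptch1 was among these 4, by a call that was lost in 14 of 21 alternative settings. In MHM + GF 5 were higher, Boc among them, and 1 was lower. The shares of all given here are of probe sets, not genes.

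**Figure D4:**
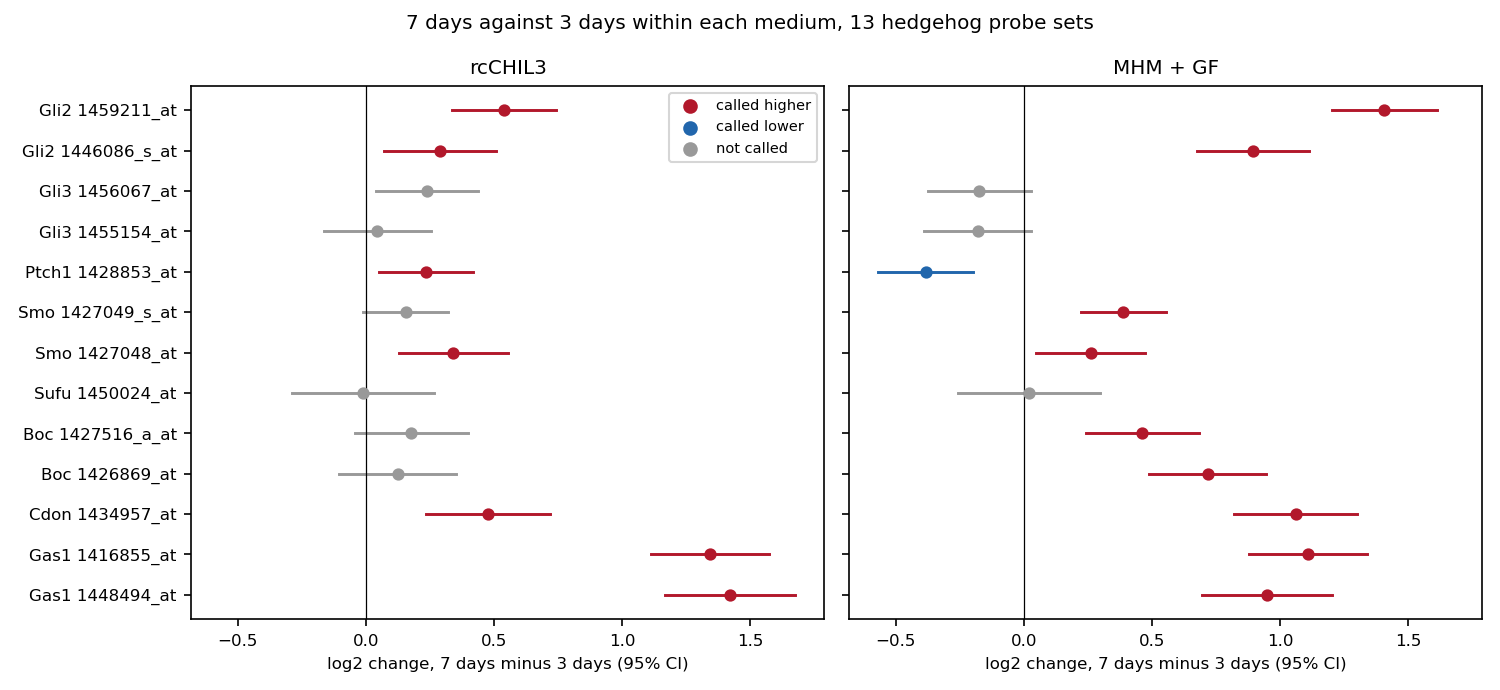
Log2 change of 7 days minus 3 days within rcCHIL3 (left) and within MHM + GF (right) for the 13 kept probe sets, with 95% confidence intervals and calls coloured as adjusted over 15679 probe sets. Gas1 lies beyond 0.9 in both panels, and Ptch1 is on opposite sides of 0.

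The effect of rcCHIL3 differed between the days for 7 of the 13. It was higher at 7 days than at 3 days for 3 (Ptch1, Gli3 1456067_at and Gas1 1448494_at) and lower for 4 (both Gli2, Cdon and Boc 1426869_at). The Boc probe set passed the filter only through MHM + GF at 7 days, which favoured a lower effect at that day. Of all kept probe sets 18.7% were higher and 22.7% lower. These calls use the same 8 arrays as the single comparisons and are not independent of them. These splits depend on the scaling. With signals as deposited, the share of all calls in the higher direction was 63.8% at 7 days (48.5% after scaling to the average), 42.6% at 3 days (55.1%), 68.9% over time in rcCHIL3 (50.2%) and 67.2% for the difference between the days (45.3%), and 3 members instead of 6 were called at 3 days.

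Ligands of the pathway were hardly measured. Of 8 genes for ligands and their release, only Dhh, desert hedgehog, was kept. Shh did not exceed 14.3 and Ihh did not exceed 12.7 on any array. Dhh read 23.5 and 18.9 in rcCHIL3 at 7 days, 24.4 and 16.2 in rcCHIL3 at 3 days, 18.6 and 8.81 in MHM + GF at 7 days and 156 and 127 in MHM + GF at 3 days. Both MHM + GF arrays at 3 days were far above the other 6, and only these passed 50, so Dhh too owed its place to the group in which it was high. Its change was 0.30 ± 0.16, adjusted p = 0.14 at 7 days and -2.0 ± 0.16, adjusted p = 1.0e-06 at 3 days. The same 2 arrays had the highest Ptch1 signals, and also the highest Ccnd1 signals (871 and 862). A link of Dhh to either gene was not tested.

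Target genes other than the members were mostly lower in rcCHIL3 at 7 days. Of 16 listed, 9 were kept, and 8 were lower and 0 higher at 7 days by limma. Of all 8975 kept genes, each taken by its kept probe set of highest mean, 22.6% were lower and 21.8% higher at 7 days. The median log2 change at 7 days was -0.72 for the 9 and -0.01 for all. In the same 9, 4 were lower and 1 higher at 3 days, beside 22.1% lower and 30.3% higher of all, with a median of -0.22 beside 0.04. Ccnd1, a cyclin of the G1 phase, read 82.8 and 89.2 in rcCHIL3 at 7 days, 133 and 128 in rcCHIL3 at 3 days, 135 and 132 in MHM + GF at 7 days and 871 and 862 in MHM + GF at 3 days. Its level in MHM + GF at 3 days stood apart from the other 3 groups, and its change was -0.53 ± 0.07, adjusted p = 1.5e-04 at 7 days and -2.56 ± 0.07, adjusted p = 6.7e-10 at 3 days. Ccnd2, another G1 cyclin, changed by -1.26 ± 0.06, adjusted p = 1.0e-07 at 7 days and -0.51 ± 0.06, adjusted p = 4.9e-05 at 3 days.

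Mycn, a transcription factor of proliferating progenitors, changed by -1.15 ± 0.10, adjusted p = 3.8e-06 at 7 days. Olig2, a factor of the oligodendrocyte lineage, changed by -0.96 ± 0.09, adjusted p = 8.4e-06 and Bcl2, an inhibitor of cell death, by -0.80 ± 0.12, adjusted p = 4.1e-04 at that day. Hes1, which is also a Notch target, changed by -1.11 ± 0.12, adjusted p = 1.4e-05 and Nkx2-2 by 0.31 ± 0.09, adjusted p = 0.015 at 3 days. Hes1 reached 50 only in MHM + GF, on both arrays at 3 days and 1 at 7 days, so that its lower signal in rcCHIL3 was built into its selection. Without it 7 of 8 target genes were lower at 7 days, with a median log2 change of -0.70, and 3 of 8 were lower at 3 days. The neuroblast, neuron and mural markers given above were also lower in rcCHIL3 than in MHM + GF at 7 days by their sums, and their part in these changes was not tested. Most genes of this list are known to answer to other signals as well.

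Cytoplasmic and ciliary regulators showed no common direction. Of 22 listed, 17 were kept; 6 were higher, 3 lower and 8 not called at 3 days, and 2 were higher, 3 lower and 12 not called at 7 days. Of all kept genes 30.3% were higher and 22.1% lower at 3 days and 21.8% were higher and 22.6% lower at 7 days, so the calls of this list at 3 days were about as frequent as those of all genes. Their median log2 changes were 0.06 and 0.00 at these days, beside 0.04 and -0.01 over all kept genes. At 3 days the largest were Dyrk2, a kinase that acts on Gli proteins (0.85 ± 0.08, adjusted p = 5.0e-06), Spopl, a ubiquitin ligase adaptor related to Spop (0.53 ± 0.10, adjusted p = 0.0011), Tulp3, a ciliary trafficking protein (0.48 ± 0.07, adjusted p = 1.8e-04) and Arrb1, a beta-arrestin (0.48 ± 0.11, adjusted p = 0.003). At 7 days they were Btrc, the ubiquitin ligase subunit that starts Gli3 processing (-0.57 ± 0.13, adjusted p = 0.0036), Arrb2 (-0.39 ± 0.10, adjusted p = 0.0075), Spop (0.36 ± 0.10, adjusted p = 0.011) and the kinase Gsk3b (-0.26 ± 0.07, adjusted p = 0.0098). Only 3 arrays had Btrc at 50 or above, the pair of MHM + GF at 7 days and 1 of rcCHIL3 at 3 days, so that it passed the filter mainly through the group in which it was high and its 7-day call is a description only.

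Of 8 other membrane components 2 were kept. Evc2, which helps pass on the signal of Smo in the cilium, changed by -0.43 ± 0.10, adjusted p = 0.004 at 3 days, and Gpr161, a ciliary receptor that keeps the pathway low, changed by -0.70 ± 0.13, adjusted p = 0.0012 at 7 days. Over all 4 lists 29 of 54 genes were kept, of which 7 were higher and 9 lower at 3 days and 2 higher and 12 lower at 7 days. The lower calls include Dhh and Hes1 at 3 days and Hes1 and Btrc at 7 days. Dhh, Hes1 and Btrc passed the filter only or mainly through MHM + GF arrays on which they were high. Beside the shares of all kept genes given above, the 29 were called about as often at both days. At 7 days the calls of the 29 lay mostly in the lower direction, with Hes1 and Btrc counted among them.

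**Figure D5:**
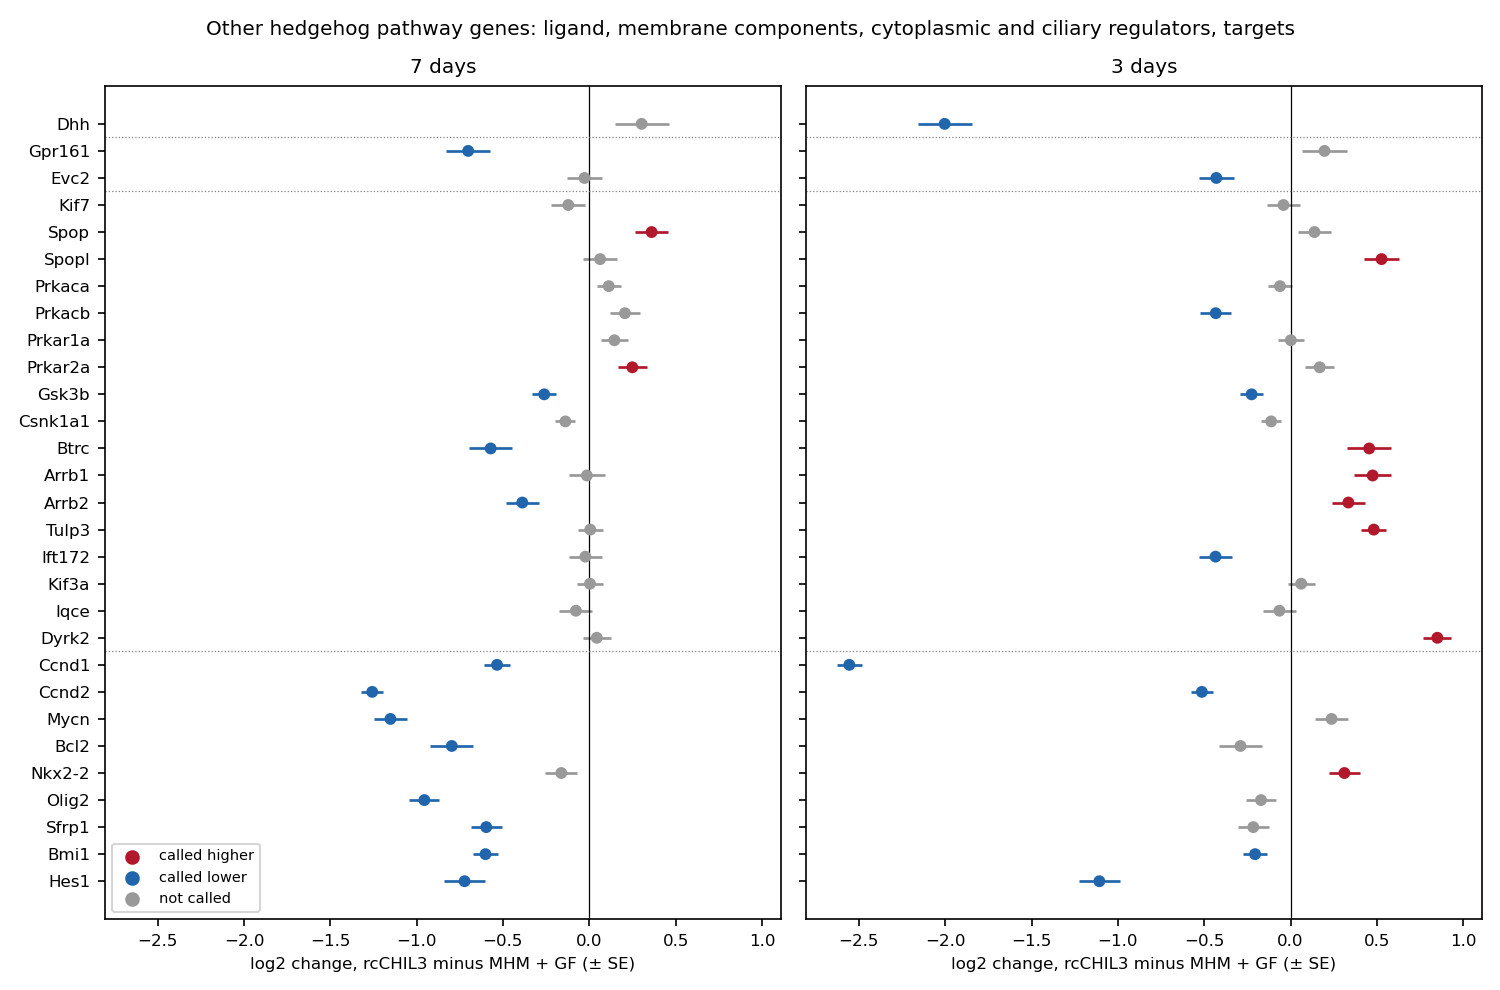
Log2 change (± SE) of rcCHIL3 minus MHM + GF at 7 days (left) and at 3 days (right) for the 29 kept genes of the other hedgehog lists, which dotted lines separate. Target genes from Ccnd1 to Hes1 lie mostly left of 0 at 7 days, and Dhh and Ccnd1 lie at -2.0 and -2.56 at 3 days.

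Cdon was the member gene with the largest absolute change at both days, taken by kept probe sets of highest mean. Over the 8 arrays, the kept genes whose log2 signal followed it most closely were Mbd2 (Pearson's r 0.996), a methyl-CpG binding protein, Adam23 (r 0.995), a membrane protein of the disintegrin family, and Psd2 (r 0.992), out of 8974 compared. Psd2 read 256 and 232 in rcCHIL3 at 7 days, 171 and 153 in rcCHIL3 at 3 days, 149 and 159.7 in MHM + GF at 7 days and 52.2 and 51.8 in MHM + GF at 3 days, an order of groups like that of Cdon. These are descriptions over 4 groups, chosen from many genes, and carry no test.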

How the data were processed

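Expression was measured in NSC neurospheres on 8 arrays, 2 for each of 4 groups taken from the sample titles. The deposited values are linear signal intensities that the authors made with the MAS5 algorithm (Affymetrix Expression Console 1.1 in the submitters' processing notes) and global scaling; the arrays' averages differ, so each array was rescaled to an average of 100. Detection calls were not used. Of the probe sets, 34958 carry 1 gene symbol, 932 several and 9211 none, from the platform annotation. Probe sets at 50 or more on at least 2 arrays were kept, without 64 array controls. Values were tested as log2(signal + 20), which understates changes of low signals, with limma 3.58.1 in R 4.3.3 (4 group means, trended eBayes, 4 residual degrees of freedom, two-sided). P-values of kept probe sets were adjusted by Benjamini-Hochberg over all kept probe sets, and a call means an adjusted p under 0.05. For member probe sets under the filter, the fit and the adjustment ran over every probe set except the array controls. P-values measure only the spread between these arrays, and the number of arrays limits the precision. Alternatives were the offset, filter, scaling, variance prior, replicate block, samples fitted, the methods' t-test and leaving out each array. All members were named; of each other pathway list, up to 4 genes with the largest called change per day were named, plus Shh, Ihh, Dhh and Ccnd1; 1 further gene of that rule is not reported here. Comparisons of media and of days share arrays. The members and lists were chosen with earlier results of these data known.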

Additional observations from a re-analysis of the deposited data

Results flagged for a closer look

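For 7 member probe sets the effect of rcCHIL3, as log2 change against MHM + GF, differed between 7 and 3 days by limma's test of the difference itself. The effect at 7 days minus that at 3 days was -0.87 for Gli2 1459211_at (adjusted p = 3.3e-04) and -0.60 for Gli2 1446086_s_at (0.0053). It was -0.58 for Cdon (0.011) and -0.59 for Boc 1426869_at (0.0076), which passed the filter only in MHM + GF at 7 days. In the other direction it was 0.62 for Ptch1 (0.0017), 0.47 for Gas1 1448494_at (0.038) and 0.41 for Gli3 1456067_at (0.024). Of the Gli2 effects, -0.10 and 0.77 stood at 7 and 3 days for 1459211_at. Cdon and Ptch1 kept the sign of their effect at both days, with 0.60 and 1.18 for Cdon and -0.42 and -1.03 for Ptch1. The second Gas1 probe set did not pass the threshold (0.23, adjusted p = 0.23).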

How the results depend on the processing

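Of the 37 member results called, 5 were called in every setting tried and 32 lost the call in at least 1; of the 28 not called, 18 stayed so and 10 passed in some. Of the 5 called in every setting, Boc 1426869_at over time in MHM + GF had its difference built into its selection. It was tried in 18 settings only. The Ptch1 and Gli2 1459211_at differences between the days were also tried in 18 settings, without the methods' t-test. Only Ptch1 at 3 days and Gli2 1459211_at over time in MHM + GF were called in all 21 settings. No member result changed sign while called. Over all settings 103 calls were lost, of which 43 were lost on leaving out 1 array and 27 by the methods' t-test with Benjamini-Hochberg adjustment, which has 2 arrays a group and no shared spread. That test called 2 member probe sets at 3 days, 0 at 7 days, 0 over time in rcCHIL3 and 2 over time in MHM + GF, with 2434, 37, 0 and 2376 of all probe sets and 3, 0, 0 and 7 other pathway genes. At 3 days its 2 member calls were Ptch1 (adjusted p = 0.042) and Boc 1427516_a_at (0.038), and limma did not call the latter (adjusted p = 0.19). Of the 6 limma calls at 3 days it kept only Ptch1, with Cdon at 0.061 and Gli2 1459211_at at 0.066. Over time in MHM + GF its calls were Gli2 1459211_at and Boc 1426869_at, and the Boc difference was built into its selection. Without adjustment the methods' t-test called 4 members at 7 days. Signals as deposited gave 3 members at 3 days, and a filter of 100 gave 4 for the difference between the days. Leaving out 1 array at a time gave 3 to 7 members at 3 days, 4 to 7 at 7 days and 3 to 6 over time in rcCHIL3, where all probe sets numbered 3671 to 5702 and other pathway genes 9 to 15; the lone array of a group was then taken to vary like the others. Same-numbered arrays did not deviate together (r -0.0106 to 0.102), and with replicate number as a block (replicate block) 7 members were called at 3 days and 7 at 7 days, with Gas1 1416855_at at 3 days as the single changed call (adjusted p = 0.032). With 2 arrays a group and no detection calls used, levels under 50 are not resolved. Antisense transcripts and probe sets ending in s_at, which can match several transcripts, were not resolved either.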
